A study of Mus musculus with 2 samples.

Results

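Genes for chondromodulin, its relative tenomodulin and a set of small proteins, most of them made by cartilage cells, were examined in primary osteoblasts of Slc39a13-KO and wild-type mice. The set held 9 genes (Cnmd, Tnmd, Ucma, Snorc, Cytl1, Clec3a, Clec11a, S100b and S100a1), taken as every probe set that the platform annotation gives to exactly 1 of these symbols. Each probe set on the array consists of several short probes against the same transcript. Of the 9 genes, 8 had such a probe set, with 11 probe sets in all among 34945 with 1 gene symbol on the array. Clec3a had none and is not analysed here. The genes were chosen on the strength of their KO over wild-type signals in these same 2 arrays, so their values are given as a description and no test is attached to them.

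Each genotype was read on 1 Affymetrix Mouse Genome array, 1 of Slc39a13-KO and 1 of wild-type cells. Slc39a13 encodes ZIP13, a zinc transporter, and in the KO line, derived from targeted ES cells, a Neo cassette replaced a stretch of its exons in every cell of the animal. The osteoblasts came from newborn calvaria, the skull vault, by serial collagenase and dispase digestion followed by culture in medium with fetal calf serum, for both genotypes alike. The sources used here do not state how many pups were pooled or of which sex. The values are linear MAS5 signals, scaled so that the trimmed mean was 500.003 in each array. Signals under a floor of 85.1, the 50th percentile of both arrays together, were raised to it before log2 was taken, and a ratio against the floor is given as at least N-fold. Ratios are Slc39a13-KO over wild-type, and a gene is called higher or lower at 2-fold, the cutoff used in the study, if all its measured probe sets have the same sign. With 1 array per genotype no p-value was computed and no difference has a replicate check. The spread available is technical, namely how far the probe sets of 1 gene differ in log2 ratio. Over 5700 genes with several probe sets this SD had a median of 0.34, and its 90th percentile was 0.75.

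Cartilage of the growth plate has no blood vessels, and the chondrocytes in it surround themselves with a matrix rich in collagen and proteoglycan. Among the small proteins they make, chondromodulin is cleaved from a membrane precursor, released into the matrix and inhibits the growth of endothelial cells. Its closest relative, tenomodulin, belongs to tendons and ligaments, and both carry a BRICHOS domain, which is also found in several otherwise unrelated membrane-bound precursors. S100 proteins are small calcium sensors with EF-hand motifs, and S100b and S100a1 are made by chondrocytes under the control of SOX factors.

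Promoter windows, 250 bases before to 50 after the gene start, were available from RefSeq (GRCm38.p6) for 7 of the 9 genes. They are shown for Cnmd and Cytl1, whose differences were the largest bounds of the set, and for Tnmd, the 1 gene of the set that was lower in Slc39a13-KO, written 5′ to 3′ on the strand of the gene with CG dinucleotides in capitals.
Cnmd, chr14:79662134-79662433, minus strand: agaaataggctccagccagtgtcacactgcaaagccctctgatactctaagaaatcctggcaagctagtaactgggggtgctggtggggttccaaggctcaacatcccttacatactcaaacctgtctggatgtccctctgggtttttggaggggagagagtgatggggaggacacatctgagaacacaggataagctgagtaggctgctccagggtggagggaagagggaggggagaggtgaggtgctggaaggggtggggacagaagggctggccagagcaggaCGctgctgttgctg
Cytl1, chr5:37735269-37735568, plus strand: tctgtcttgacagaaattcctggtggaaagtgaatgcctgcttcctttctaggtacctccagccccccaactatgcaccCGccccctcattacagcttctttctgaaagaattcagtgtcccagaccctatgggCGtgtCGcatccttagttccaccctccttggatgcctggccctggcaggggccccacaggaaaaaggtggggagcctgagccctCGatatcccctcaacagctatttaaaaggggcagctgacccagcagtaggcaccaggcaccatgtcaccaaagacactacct
Tnmd, chrX:133850758-133851057, plus strand: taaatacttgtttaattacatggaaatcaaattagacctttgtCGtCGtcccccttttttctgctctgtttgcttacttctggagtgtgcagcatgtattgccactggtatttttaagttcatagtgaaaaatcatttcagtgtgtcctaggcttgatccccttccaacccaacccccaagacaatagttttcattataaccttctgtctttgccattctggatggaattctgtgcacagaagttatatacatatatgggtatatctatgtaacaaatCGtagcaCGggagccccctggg
The Cnmd window held 1 CG and those of Cytl1 and Tnmd 4 each. Over the 7 windows the number ran from 1 to 11 with a median of 4, against a median of 7 over 32544 different windows of the same length, whose lower quartile was 3 and upper quartile 20. The SOX-type letters AACAATG or AACAAAG, searched on both strands, were in 0 of the 7 windows and in 9.28% of all windows. The 7 genes lie on 7 different chromosomes, from chromosome 2 to X.

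The targeted gene and the arrays as wholes bear on all the values that follow. Slc39a13 itself had a signal of 90.4 in Slc39a13-KO, little above the floor, and 1309 in wild-type, 14.5-fold lower. This goes with the labels, although whether its probe set lies in the removed exons was not established here. The 3′ over 5′ signal ratios of the control transcripts were alike, at 0.752 in Slc39a13-KO and 0.796 in wild-type for Gapdh and 1.26 in Slc39a13-KO and 1.30 in wild-type for beta-actin. The poly-A controls, which are bacterial transcripts spiked into the RNA, were lower in Slc39a13-KO for 24 of 24 probe sets, with a median log2 ratio of -1.02. Scaling on them moved the median of all genes to 0.94, so directions here are relative to the bulk of genes.

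Of the 8 genes on the array, 7 were measured, that is, above the floor in at least 1 array. Of these, 6 were at least 2-fold higher in Slc39a13-KO and 1, Tnmd, was lower. Over all 12269 measured genes, 8.01% were called higher and 5.93% lower. Because the set was drawn from this same comparison, nothing is read from the difference between these shares. The median log2 ratio was 3.91 over the 7 genes and 0.11 over all measured genes. With a 3-fold cutoff 5 were higher and 1 lower, beside 2.98% higher and 2.71% lower among all measured genes. At least 8-fold higher were 5 of the 7, beside 0.644% of all measured genes.

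**Figure D1:**
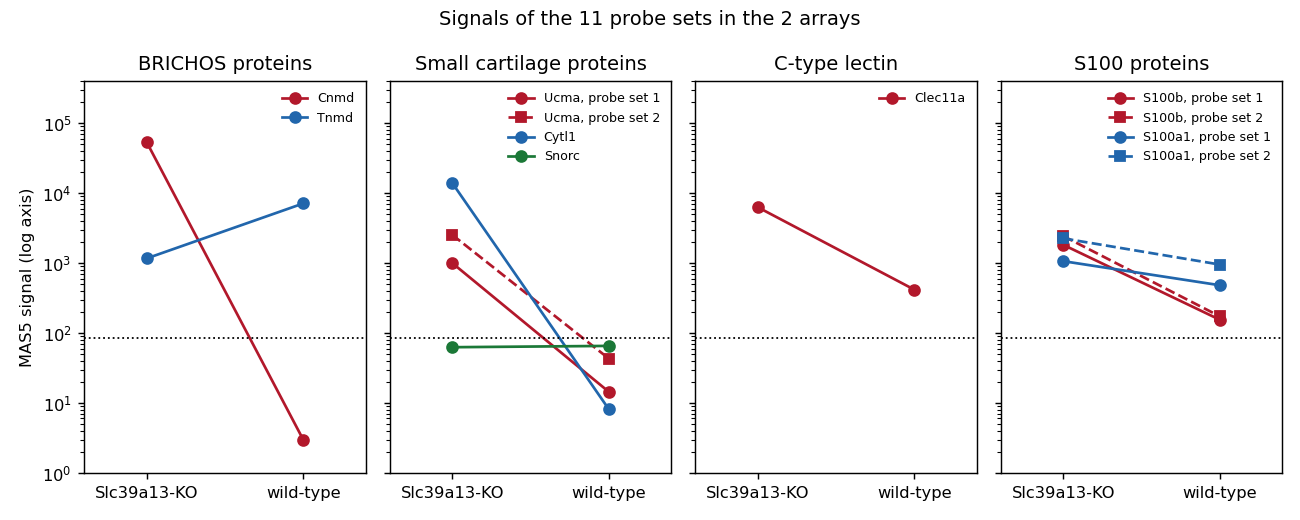
MAS5 signals (vertical, log axis) of the 11 probe sets in the Slc39a13-KO and wild-type arrays, 1 point per array, joined by a line for each probe set, with a dotted line at the floor of 85.1. Cnmd, Cytl1 and Ucma lie above the floor in Slc39a13-KO and under it in wild-type, Tnmd is lower in Slc39a13-KO, and Snorc stays under the floor in both arrays.

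Chondromodulin was higher in Slc39a13-KO, and its relative tenomodulin was lower. The Cnmd probe set had a signal of 52990 in the Slc39a13-KO array and 2.97 in the wild-type array. The wild-type value lies far under the floor, so the transcript was not measured there and the difference is at least 623-fold, a bound set by the floor and the Slc39a13-KO signal. Tnmd, which was measured in both arrays, had a signal of 1167 in Slc39a13-KO and 7120.1 in wild-type, a log2 ratio of -2.61 and 6.10-fold lower in Slc39a13-KO. Both of its signals lay above the floor, so its ratio is not a bound. Cnmd and Tnmd were each read by 1 probe set, so neither has a spread of its own. The bound for Cnmd depends on the floor, and its log2 ratio of 9.28 became 7.37 with a 70th percentile floor and 10.57 with a 30th percentile floor. With scaling on the poly-A controls the log2 ratio of Tnmd was -1.59, where the median of all genes was 0.94.

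Other genes with a BRICHOS domain did not share either difference. Of 8 listed, 4 were measured and 0 were called in either direction, with log2 ratios from -0.12 to 0.30. With poly-A scaling 3 of 5 were called higher, but their median of 1.00 was close to the 0.94 of all genes. Itm2a, which is expressed early in cartilage formation, had signals of 7583 and 2541 for its 2 probe sets in Slc39a13-KO, against 8557 and 2656 in wild-type. Itm2b, the widely expressed precursor of the BRI peptides, had a geometric mean of 22660 in Slc39a13-KO and 18422 in wild-type over its measured probe sets, with log2 ratios of -0.02 and 0.62 for the single ones. Itm2c had 10193 in Slc39a13-KO and 10326 in wild-type. The gastric gene Gkn3 was near the floor, at 126 in Slc39a13-KO and 104 in wild-type.

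Of the genes that mark tendon, where Tnmd is best known, 0 were called lower along with it. Of 7 measured tendon markers 1 was higher and 0 lower, and the list median was 0.44. With poly-A scaling 5 were called higher and the list median was 1.28. That scaling called 45.8% of all genes higher, with a median of 0.94. The tendon median lay 0.34 above that of all genes both as reported and with poly-A scaling. Scx (scleraxis), the transcription factor of tendon progenitors that activates Tnmd, had signals of 118 and 102 in Slc39a13-KO, near the floor, against 217 and 151 in wild-type. Its log2 ratio of -0.72 was not called, though both probe sets were lower in Slc39a13-KO. The ratio was -0.97 with median, -0.95 with quantile, -0.97 with loess and 0.30 with poly-A scaling, and none of these was called. Relative to the median of all genes, the Scx value with poly-A scaling was -0.64. Mkx, another tendon transcription factor, had 684 in Slc39a13-KO and 364 in wild-type. Fmod (fibromodulin), a proteoglycan that tendon and cartilage both make, was 4.14-fold higher in Slc39a13-KO, with all 6 probe sets between 1.79 and 2.24 on the log2 scale. Kera, a marker of mature tendon and cornea, was under the floor in both arrays.

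Endothelial markers, read because chondromodulin acts on vessel cells, were mostly under the floor in both arrays. Of 10 listed, 6 were under the floor in both arrays, Pecam1, Kdr and Vwf among them. Of the 4 measured, 1 was lower, Flt1, a VEGF receptor, by at least 2.54-fold, and 0 higher. With median, quantile and loess scaling 2 were lower, Flt1 and Eng, and with poly-A scaling 0 were called. Of the 5 endothelial markers measured with poly-A scaling, 5 lay under the median of all genes, which was then 0.94. The brightest probe set of each of the 10 genes summed to 1288 in Slc39a13-KO and 2457 in wild-type. Eng (endoglin), which stromal cells also express, had a geometric mean of 558 in Slc39a13-KO and 1090.4 in wild-type over its probe sets, and its log2 ratio of -0.97 was not called as scaled but was with median (-1.21), quantile (-1.05) and loess (-1.05) scaling. Its brightest probe set, with 903 in Slc39a13-KO and 1730.1 in wild-type, made up most of both endothelial sums.

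Cytl1 and Ucma, both small secreted proteins of cartilage, were above the floor only in Slc39a13-KO. Cytl1, a cytokine-like protein of chondrocytes, had a signal of 13890.5 in Slc39a13-KO and 8.13 in wild-type, at least 163-fold higher. Ucma, a vitamin K-dependent protein of the upper growth plate that is also called Gla-rich protein, was read by 2 probe sets. They had 998 and 2525 in Slc39a13-KO, against 14.4 and 43.1 in wild-type, so both wild-type values lay under the floor. Their mean difference was at least 18.7-fold, with log2 ratios of 3.55 and 4.89 and an SD of 0.95 between them. This SD is wider than the 90th percentile of all genes. With both wild-type values raised to the floor, it reflects only the 2 Slc39a13-KO signals. Without a floor the 2 ratios were 6.11 and 5.87. With a 70th percentile floor the log2 ratio was 5.44 for Cytl1 and 2.31 for Ucma.

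Snorc, a transmembrane proteoglycan of chondrocytes, was not detected above the floor in either array. Its single probe set had a signal of 62.6 in Slc39a13-KO and 65.4 in wild-type, and no ratio is given. It stood apart in this from Cnmd, Cytl1 and Ucma, although a probe set under the floor in both arrays does not show whether the transcript was present.

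Genes that make and accompany vitamin K-dependent proteins such as Ucma were read as well. Of 5 measured, 1 was higher and 0 lower, with a median of 0.39. With poly-A scaling 4 were called higher, beside 45.8% of all genes, whose median was then 0.94. The list median lay 0.28 above that of all genes as reported and 0.47 above it with poly-A scaling. Ggcx, the carboxylase that adds the Gla residues, was called higher by at least 2.34-fold. Its 2 probe sets had 832 and 243 in Slc39a13-KO, against 433 and 75.9 in wild-type. Vkorc1, which recycles vitamin K, had 15292 in Slc39a13-KO and 7919 in wild-type, and with a log2 ratio of 0.95 it was not called as scaled but was with quantile, loess and poly-A scaling. Mgp, the Gla protein that keeps cartilage matrix from calcifying, had 32929 in Slc39a13-KO and 25216 in wild-type. The osteocalcin genes Bglap, Bglap2 and Bglap3 had no probe set with 1 symbol and are not analysed here.

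Clec11a, unlike Cnmd, Cytl1 and Ucma, was measured in both arrays. This gene encodes osteolectin, a secreted C-type lectin of the tetranectin group that promotes the differentiation of stromal cells into osteoblasts. Its probe set had a signal of 6275 in Slc39a13-KO and 416 in wild-type, 15.1-fold higher, with a log2 ratio of 3.91. Its single probe set lay above every floor in both arrays, so the choices of floor and probe set could not change this ratio. The scalings moved it between 3.67 and 4.94. Clec3b (tetranectin), its relative, was under the floor in both arrays, at 31.2 in Slc39a13-KO and 29.8 in wild-type. Itgb1, the beta chain of the integrin that binds osteolectin, was 1.04-fold apart with 2137 in Slc39a13-KO and 2061 in wild-type, and the alpha chain gene Itga11 had no probe set with 1 symbol.

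Of the markers of the osteoblast itself, the labelled cell type, both type I collagen genes were measured in the 2 arrays and neither was called. Col1a2 had a geometric mean of 25943 in Slc39a13-KO and 28503 in wild-type over its measured probe sets. The 2 probe sets of Col1a1 disagreed, with 28006 and 2093 in Slc39a13-KO against 27133 and 5512 in wild-type, log2 ratios of 0.05 and -1.40. Sp7 (osterix), the transcription factor of osteoblast commitment, had 153 in Slc39a13-KO and 94.8 in wild-type, little above the floor, and Ibsp and Phex were under it in both arrays. Of 6 measured osteoblast markers 3 were higher and 0 lower. These were Pth1r, which growth plate chondrocytes also express (5.20-fold), Dmp1 (at least 4.50-fold) and Alpl (at least 2.32-fold). Runx2, Bglap and Spp1 had no probe set with 1 symbol.

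**Figure D2:**
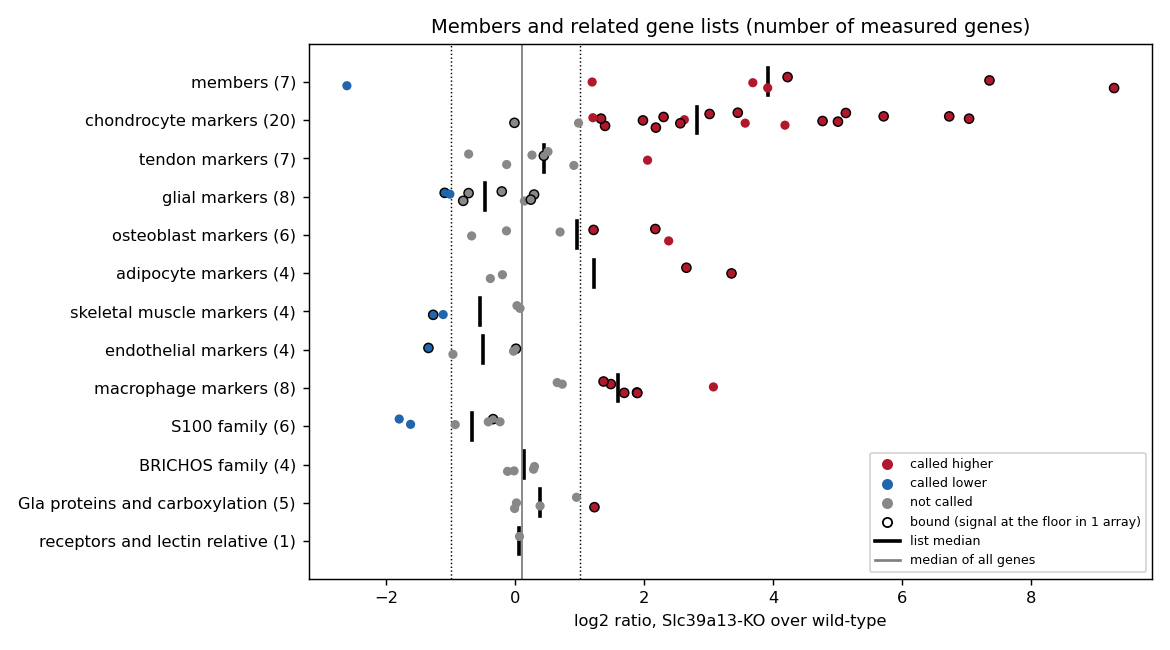
The horizontal axis gives the log2 ratio (Slc39a13-KO over wild-type) for the members and 12 related gene lists, 1 point per measured gene, red for genes called higher, blue for genes called lower and grey otherwise, and outlined in black for ratios against the floor. Vertical black bars are list medians, the grey line is the median of all genes (0.11) and dotted lines are 2-fold. The member median of 3.91 and the chondrocyte marker median of 2.82 lie to the right. The S100 family median of -0.67 lies to the left. With poly-A scaling, not drawn here, the S100 family median was 0.22 and that of all genes 0.94.

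S100b and S100a1 were both higher in Slc39a13-KO, whereas the other measured S100 genes were not. S100b was read by 2 probe sets, with signals of 1818 and 2426 in Slc39a13-KO against 155 and 173 in wild-type. Both probe sets thus put the Slc39a13-KO array above the wild-type one, and the gene was 12.8-fold higher with an SD of 0.18 on the log2 scale between them. S100a1, otherwise known from heart and skeletal muscle, had 1063 and 2251 in Slc39a13-KO against 482 and 952 in wild-type. This is a 2.28-fold difference with an SD of 0.07 between its 2 probe sets, 1 of which carries a suffix for shared transcripts. The S100a1 call lies near the cutoff, and with median scaling its log2 ratio of 1.19 became 0.95, which is not called. Its distance from the median of all genes was 1.09 as reported and 1.06 with median scaling.

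The remainder of the S100 family was lower or close between the arrays relative to the bulk of genes. Of 14 other members listed, 6 were measured, with 2 called lower, 0 higher and a median of -0.67, but with poly-A scaling the median was 0.22, against 0.94 for all genes, and 0 were called. S100a4, a marker of fibroblasts and other motile cells, had signals of 8944 in Slc39a13-KO and 27530.4 in wild-type, 3.08-fold lower. S100a10, the partner of annexin A2, was 3.48-fold lower, with 4417, 92.3 and 4724 for its 3 probe sets in Slc39a13-KO against 15020.2, 282 and 19153 in wild-type. S100a6 (calcyclin) had 14799 in Slc39a13-KO and 28203 in wild-type, a log2 ratio of -0.93 that was not called as scaled, was called lower with median scaling and turned to 0.09 with poly-A scaling. The myeloid genes S100a8 and S100a9 were under the floor in both arrays. S100b and S100a1 kept their sign in each of the 4 other scalings.

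**Figure D3:**
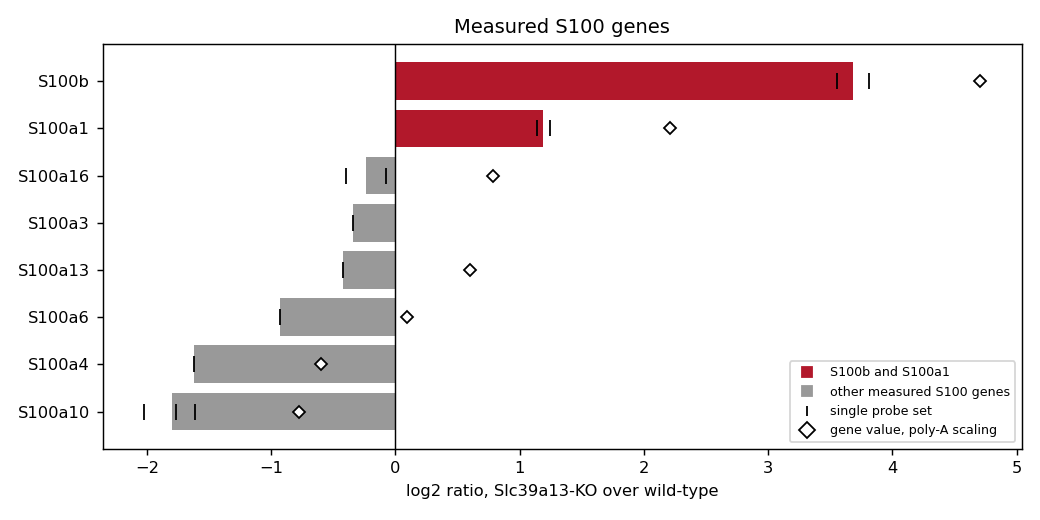
The measured S100 genes with their log2 ratio (horizontal axis, Slc39a13-KO over wild-type), with bars for the gene mean, black ticks for single probe sets and open diamonds for the gene value with poly-A scaling. S100b (3.68) and S100a1 (1.19) lie to the right of 0 and the other 6 genes to the left as scaled, of which S100a6, S100a13 and S100a16 lie to the right with poly-A scaling and S100a3 was not measured with it. The median of all genes with poly-A scaling was 0.94.

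Because S100b is also made by glia and fat cells, and S100a1 by muscle, markers of these cells were read in the same arrays. Of 8 measured glial markers 2 were lower, Erbb3 by at least 2.13-fold and Gap43 by 2.02-fold, and 0 higher. The measured Erbb3 probe set had 34.9 in Slc39a13-KO, under the floor, and 182 in wild-type. Gap43 had 99.8 in Slc39a13-KO, little above the floor, and 201 in wild-type. Log2 ratios were under 0 for 5 of the 8, whereas Sox10 (0.14), Gfap (0.29) and Mbp (0.24) lay above 0 and were not called. The brightest probe sets of the glial list summed to 655 in Slc39a13-KO and 1101 in wild-type, and with poly-A scaling 0 were called in either direction. Of the 7 glial markers measured with that scaling, 7 lay under the median of all genes, which was then 0.94. Of 4 measured adipocyte markers 2 were higher, Pparg by at least 10.2-fold and Fabp4 by at least 6.29-fold. The other 2, Cebpa and Lpl, had log2 ratios of -0.20 and -0.39 and were not called. Adipoq and Lep were under the floor in both arrays. The adipocyte sum was 2061 in Slc39a13-KO and 799 in wild-type. Of 4 measured skeletal muscle markers 2 were lower, the muscle actins Acta1 (2.17-fold) and Actc1 (at least 2.41-fold), although 0 were called with poly-A scaling. Of the 5 muscle markers measured with that scaling, 5 lay under the median of all genes (0.94). Ckm, Myod1 and Myog were under the floor in both arrays. Macrophage markers were higher in 6 of 8 measured, led by Lyz2 (8.41-fold), and summed to 4390 in Slc39a13-KO and 788 in wild-type, while Ptprc and Itgam were under the floor. The part of these cells in the S100b and S100a1 differences was not tested.

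Markers of cartilage cells that are not in the set moved in the same direction as its 6 higher genes. Of 22 listed, 20 were measured, of which 18 were higher and 0 lower, with a median log2 ratio of 2.82. This list was drawn up with earlier results known and is not independent support. The brightest probe sets of the 22 genes summed to 135659 in Slc39a13-KO and 9262 in wild-type. Mia, a small secreted protein of cartilage, was at least 131-fold higher, Col9a1, a collagen on the surface of cartilage fibrils, at least 106-fold and Acan (aggrecan) at least 52.4-fold. The SOX factors that drive S100b and S100a1 in chondrocytes were higher as well. Sox9 had 3480.1 in Slc39a13-KO and 294 in wild-type, Sox6 was at least 10.9-fold and Sox5 at least 4.53-fold higher. Of the markers of late chondrocytes, Col10a1 was called higher by at least 2.51-fold, with 214 in Slc39a13-KO and a signal under the floor in wild-type, and Ihh was not called, at 73.3 in Slc39a13-KO, under the floor, and 85.8 in wild-type, just above it. In such bulk cultures more cells of a type and more RNA per cell cannot be told apart, and the part of cartilage cells in the differences of the set was not tested.

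The 4 genes measured on both sides ran, by log2 ratio, from Clec11a over S100b and S100a1 to Tnmd. The step of 0.23 between Clec11a and S100b is smaller than the median SD between probe sets of 0.34, so their order is not settled. S100a1 lay 2.49 below S100b, and Tnmd lay 3.80 below S100a1. That SD is technical, so with 1 array per genotype it cannot show whether any of these steps would recur in other cultures. Cnmd, Cytl1 and Ucma have only lower bounds and were not placed in this order. With the floor applied, Cnmd had the highest log2 ratio of all 12269 measured genes, so the genes nearest to it are the next highest. These 5 were Penk, Cytl1, Mia, Matn4 and Col9a1, within 2.56. Since the ratios of Cnmd, Cytl1, Mia and Col9a1 are bounds, neither these distances nor their order is settled. Penk, the enkephalin precursor, had a signal of 32784 in Slc39a13-KO and 160 in wild-type, and the matrilin Matn4 had 17123 in Slc39a13-KO and 131 in wild-type. With 2 arrays this rests on 1 ratio per gene, and no likeness to Cnmd is read from it.

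**Figure D4:**
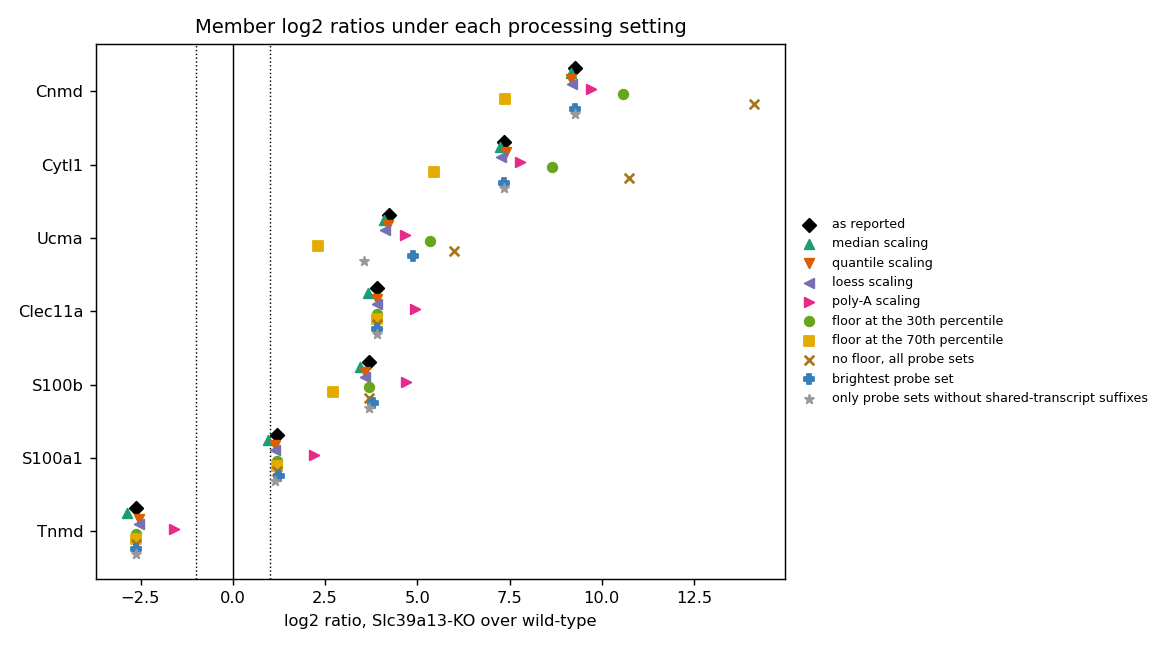
The 7 measured genes with their log2 ratio (horizontal axis, Slc39a13-KO over wild-type) under the processing as reported and 9 other settings, 1 symbol per setting, with dotted lines at 2-fold. Every gene stays on its side of 0; Cnmd spreads from 7.37 to 14.12 with the choice of floor, and S100a1 falls inside the 2-fold line with median scaling (0.95).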

How the data were processed

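Total RNA of primary Slc39a13-KO and wild-type osteoblasts was read on 1 Affymetrix array per genotype after biotin labelling. The deposited values are linear signal intensities per probe set, which the authors made with MAS5, as the submitters' processing notes say (version not given in the sources used here), whereas the methods of the study name gcRMA for its own analysis. The values are positive linear numbers with equal 2% trimmed means in both arrays, as MAS5 scaling gives, which hides any change in the mRNA content of a cell. No detection calls were used.

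Of 45101 probe sets, 64 were controls, 34945 had 1 gene symbol and 932 several, and those with several or none were left out. By gene ID 34741 (99.4%) matched RefSeq (GRCm38.p6), with 0 symbols changed. Signals were brought to the same 2% trimmed mean, floored at the 50th percentile and log2 transformed, and log2 ratios were averaged over the measured probe sets of a gene (Python 3.11.15, pandas 2.3.3, scipy 1.17.1, statsmodels 0.14.6). The text names all members, Slc39a13, up to 4 called genes with the largest ratios of each related list and the 5 genes nearest to Cnmd in log2 ratio, and other related genes were chosen after their values were seen. The members and lists were chosen with earlier results of these data known. Calling was tested on simulated data, with signals placed clear of the floor and noise at the median SD between probe sets. That test does not cover ratios against the floor or differences between cultures. The number of arrays, 1 per genotype, limits the precision. Alternatives were median, quantile, loess and poly-A scaling, floors at the 30th and 70th percentiles or none, the brightest probe set, only probe sets without shared-transcript suffixes, and a 3-fold cutoff.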

Additional observations from a re-analysis of the deposited data

How the results depend on the processing

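No paired analysis was possible because each genotype has 1 array, and no replicate could be left out. Of the 7 measured genes, 6 were called higher and 1 lower with quantile, loess and poly-A scaling, with each floor and with each choice of probe sets. With median scaling 5 were higher, S100a1 being lost, and with a 3-fold cutoff 5 were higher and 1 lower. The median log2 ratio of the measured members was 3.91 as reported, 4.71 with poly-A scaling and 2.72 with the 70th percentile floor, and it ran from 3.67 to 3.92 under the other settings. The poly-A shift is that of all genes, whose median moved to 0.94 with it, to -0.11 with median scaling, 0 with quantile and -0.01 with loess scaling. Genes called higher made up 57.5% of calls as reported, 38.3% with median, 47.5% with quantile, 46.8% with loess and 96.3% with poly-A scaling. Counts over all genes moved by more than 1.5 times in several settings. With median scaling 654 were higher against 983 as reported, with poly-A scaling 5895 were higher and 225 lower against 727 lower, with no floor 3077 were higher and 2049 lower, with a floor at percentile 30 there were 1596 higher, and at percentile 70 there were 506 higher and 438 lower. With a 3-fold cutoff 366 were higher and 332 lower. No single member changed sign over 9 settings. Clec11a ran from 3.67 to 4.94 and S100b from 2.72 to 4.71. The bounds of Cnmd, Cytl1 and Ucma followed the floor, from 7.37 to 14.12, from 5.44 to 10.74 and from 2.31 to 5.99. The highest of these, without a floor, rest on wild-type signals far under it.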
